A study of Mus musculus with 6 samples.

Results

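The 28 genes described here encode proteins of the myelin sheath, enzymes of myelin lipid synthesis and other proteins of mature oligodendrocytes. They were chosen by name, as a list of symbols, with earlier results of these data known. All 28 were found among the 24062 gene symbols of the deposited tables. Their transcript levels were measured in the ventral dentate gyrus of male C57black 6 mice. The mice were given chronic restraint stress (labelled Chronic Restrained Stress, CRS, 3 libraries) or were left unstressed (labelled Not-stressed Controls, Ctrl, 3 libraries). The labels used here name no other treatment and no genetic change, and they do not give the age of the mice or say if a library holds 1 animal or several. P-values therefore measure the spread between these libraries.

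Oligodendrocytes wrap axons of the central nervous system in myelin, a stack of lipid-rich membranes that speeds conduction and supports the axon. Mature cells make large amounts of a few myelin proteins and of galactolipids, under transcription factors of the SOX, basic helix-loop-helix and MYRF families. In the dentate gyrus most cell bodies belong to granule neurons, and myelinated fibres run mainly in the hilus and along the borders of the region. The defining markers of the cell type were well measured: the myelin basic protein gene Mbp had 6582 to 14871 counts per library and the myelin oligodendrocyte glycoprotein gene Mog 228 to 504. Of 10 genes listed for Schwann cells, which make peripheral myelin, 6 had at most 8 counts in any library, among them Pmp2 with 0 to 2. The other 4, Drp2, Sox2, Pmp22 and Egr2, had 17 to 881 counts.

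To show the sequence next to the members, promoter windows of 250 bases before the start site were taken from RefSeq (GRCm38.p6). 20 of the 28 genes had at least 1 window, giving 26 windows, some of which overlap, and Mbp, Fa2h, Car2, Trf, Cryab, Olig1, Sox10 and Myrf had none. 4 kinds of letters were searched on both strands. They were ACAAAG, part of the sequence that SOX factors prefer, CTGGCAC or CTGGTAC, which MYRF prefers, CAGCTG, an E-box of basic helix-loop-helix factors, and TATAAA, the TATA box. ACAAAG stood in 8 of the 26 windows, or 30.8%, of 7 genes, against 16.5% of all 32851 mouse windows. The MYRF letters stood in 4 of the 26, or 15.4%, against 5.93% of all windows, in the windows of Mag, Cnp and Mog, and CAGCTG in 1, or 3.85%, against 13% of all. TATAAA also stood in 1 of the 26, or 3.85%, against 12.4% of all. The Mag windows that hold ACAAAG and the MYRF letters overlap, so the same matches are counted in each. The windows of Mobp, Mag, Cnp and Mog are shown. Mobp holds the most copies of ACAAAG, and Mag, Cnp and Mog are the members with the MYRF letters. Capitals mark ACAAAG or the MYRF letters, or their reverse complement, and each sequence reads 5′ to 3′ toward the gene.
Mobp, chr9:120149492-120149706, plus strand: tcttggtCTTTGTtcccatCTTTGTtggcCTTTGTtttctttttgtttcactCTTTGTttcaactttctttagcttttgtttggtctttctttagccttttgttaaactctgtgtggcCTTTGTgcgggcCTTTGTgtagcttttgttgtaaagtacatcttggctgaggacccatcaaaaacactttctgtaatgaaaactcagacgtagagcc
Mag, chr7:30914923-30915172, minus strand: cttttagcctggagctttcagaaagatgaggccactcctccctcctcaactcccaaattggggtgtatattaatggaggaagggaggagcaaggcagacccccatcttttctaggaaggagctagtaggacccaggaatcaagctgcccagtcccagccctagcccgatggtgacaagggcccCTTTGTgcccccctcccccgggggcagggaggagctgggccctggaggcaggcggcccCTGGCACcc
Cnp, chr11:100574689-100574903, plus strand: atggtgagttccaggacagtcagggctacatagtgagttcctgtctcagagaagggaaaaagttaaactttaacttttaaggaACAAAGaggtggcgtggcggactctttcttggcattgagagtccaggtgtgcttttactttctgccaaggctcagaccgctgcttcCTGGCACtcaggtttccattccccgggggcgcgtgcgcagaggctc
Mog, chr17:37023399-37023648, minus strand: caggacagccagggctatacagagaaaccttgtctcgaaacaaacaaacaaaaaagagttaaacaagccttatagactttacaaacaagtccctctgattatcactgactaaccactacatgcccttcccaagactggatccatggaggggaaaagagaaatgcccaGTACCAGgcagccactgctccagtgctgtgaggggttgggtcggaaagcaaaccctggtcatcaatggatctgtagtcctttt
The Mobp and Cnp windows are shown for 215 bases, up to the gene start in GENCODE M21. The Mobp window held 6 copies of ACAAAG, all as the reverse complement CTTTGT, and 1 of the 32851 windows, Mobp itself, held as many. In the Mag and Cnp windows ACAAAG and CTGGCAC stood together. A match is a description of letters and not a measured binding site.

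1 library stands apart and touches every result below. CRS replicate 1 held far more transcript of choroid plexus, ependymal and striatal genes than the other 5 libraries. The 12 choroid plexus genes summed to 4893 CPM (counts scaled to library size with the trimmed mean of M values) in CRS replicate 1 and to between 26.4 and 34.1 CPM in the others. Among these, Ttr, whose product transthyretin is secreted by that epithelium, reached 4248 CPM against 2.08 to 6.51 CPM. 5 or 6 of the 12 were at or under 3 counts in each other library, and none was in CRS replicate 1. The 8 ependymal genes of the tables summed to 99.1 CPM against 7.83 to 11.5 CPM, and the 10 striatal genes to 960 CPM against 193 to 213 CPM. All 10 genes of CA3 pyramidal neurons were highest in CRS replicate 1 as well, at 1944 CPM in sum against 1006 to 1281 CPM. The 12 dentate granule neuron genes summed to 744 CPM in CRS replicate 1 and to between 1074 and 1406 CPM in the others, and Prox1, which granule neurons need for their identity, was at 48.4 CPM against 92.4 to 132.5 CPM. The part of this difference in tissue in the myelin values was not tested. The members' fold changes and counts of calls are therefore given with and without CRS replicate 1. In bulk tissue, more oligodendrocytes and more transcript per oligodendrocyte cannot be told apart.

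No member passed the test for stress against control. None of the 28 reached an adjusted p under 0.05 by edgeR's quasi-likelihood test, where 4 of all 14058 tested genes, or 0.0285%, did. The members' adjusted p-values ran from 0.795 to 0.981, and 0 had an unadjusted p under 0.05, against 8.71% of all tested genes. DESeq2, limma-voom and edgeR's exact test also called 0 of them. Their log2 fold changes of stress over control ran from -0.14 to 0.43 with a median of 0.24, against 0.0038 over all tested genes, and 25 of the 28 were positive, against 51% of all. Without CRS replicate 1 the median was -0.080, with 6 of the 28 positive, against 48.5% of all genes, and a range of -0.34 to 0.19. In that fit 0 members passed, where 0.289% of 14188 tested genes did, and the median over all genes was -0.0053. Aspa alone had an unadjusted p under 0.05, against 11.5% of all tested genes.

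**Figure D1:**
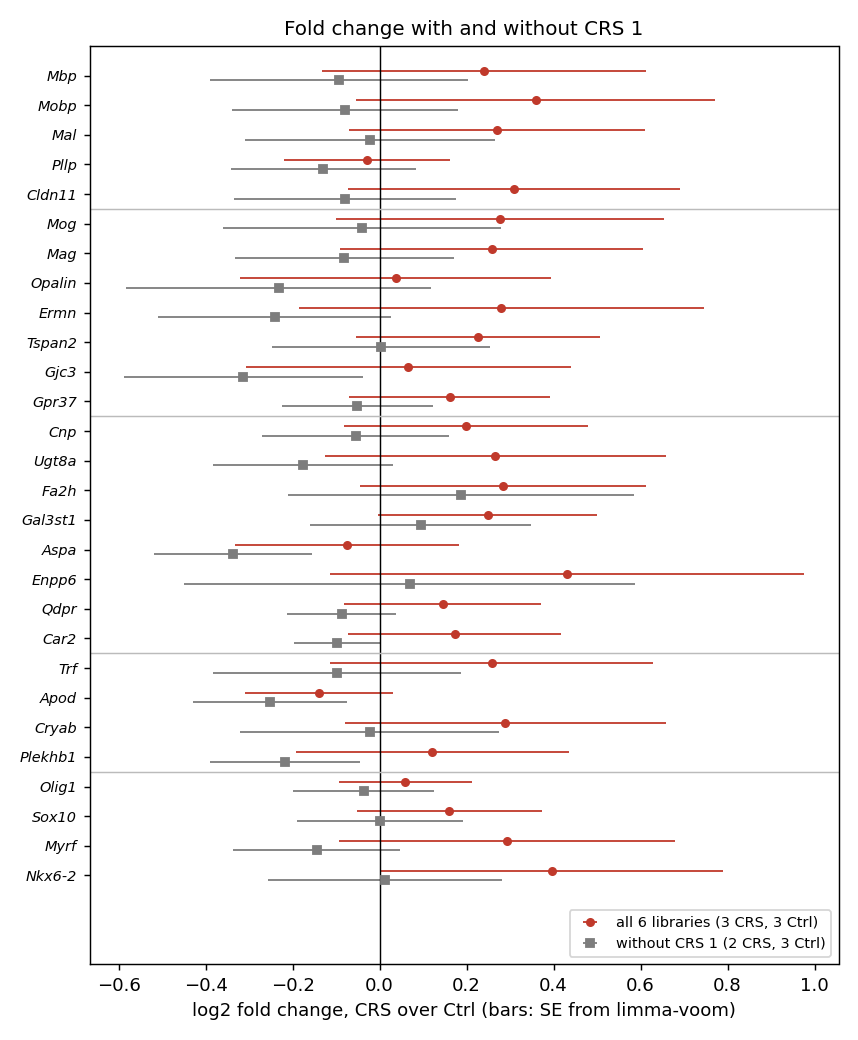
Log2 fold change of CRS over Ctrl for each of the 28 genes, with all 6 libraries (red circles) and without CRS replicate 1 (grey squares). Bars are standard errors from limma-voom and grey lines separate the roles described in the text. 25 of 28 red points lie right of 0, and 22 of 28 grey points lie left of it.

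For most members both the highest and the lowest library were stress libraries. CRS replicate 1 was the highest of the 6 libraries for 25 of the 28 genes, where it was the highest for 25.5% of all tested genes. CRS replicate 3 was the lowest for 24, where it was the lowest for 17.3% of all. For 22 members CRS replicate 1 lay above all 3 controls and CRS replicate 3 below all 3, a placing that 7.53% of all tested genes had. The 28 genes summed to 4886, 3371 and 2316 CPM in CRS replicates 1, 2 and 3, against 2814, 3417 and 2853 CPM in Ctrl replicates 1, 2 and 3. The controls therefore lay inside the range of the stress libraries.

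Gene by gene, the 28 members had 16 different orders of the 6 libraries, and the commonest held for 6. Every one of the 28 was higher in CRS replicate 1 than in CRS replicate 3, with a ratio of 1.28 to 3.06 and a median of 2.07. All 28 were also higher in CRS replicate 2 than in CRS replicate 3, with a median ratio of 1.41. At most 3 of the 28 in CRS replicate 3 exceeded any given control library. CRS replicate 2 sat near Ctrl replicate 2, the highest control, with 14 genes above it and a median ratio of 0.994. Among controls, Ctrl replicate 2 exceeded Ctrl replicate 1 for 26 genes and Ctrl replicate 3 for 23. The standard deviation was larger in stress than in control libraries for 27 of the 28, with Apod as the exception, where 59.8% of all tested genes had this. The median coefficient of variation was 36.4% in stress and 14.2% in control libraries for the members, against 10.2% and 8.27% for all tested genes. Without CRS replicate 1 the members' value in stress was 23.8%, from 2 libraries, against 5.91% for all genes. For 0 of the 28 were the groups free of overlap, against 14.6% of all tested genes.

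**Figure D2:**
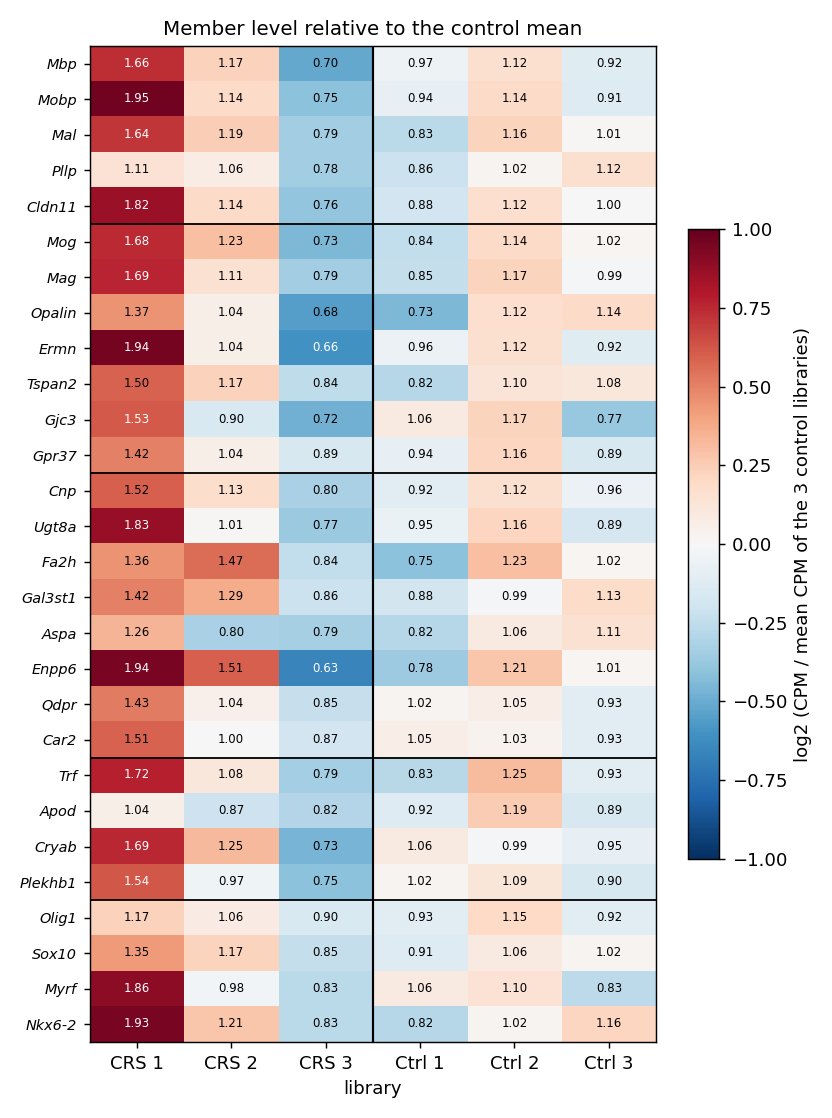
Level of each member in each library, as log2 of its CPM over the mean of the 3 control libraries (colour), with the ratio itself printed in the cell. The CRS replicate 1 column runs from 1.04 to 1.95 and the CRS replicate 3 column from 0.63 to 0.90, while the control columns lie between them for most genes.

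Among the 5 genes of the sheath membrane Mbp had the highest level per kilobase of merged exons and Pllp the lowest. Mbp, whose product holds the cytoplasmic faces of the membrane together, had 1620, 1141 and 683 CPM in CRS replicates 1, 2 and 3, against 940, 1086 and 893.7 CPM in Ctrl replicates 1, 2 and 3. CRS replicate 1 was the highest and CRS replicate 3 the lowest, and the controls lay between. The gene lies on chromosome 18 (82475146 to 82585637, GRCm38), and the 28 members are spread over 13 chromosomes. By edgeR its log2 fold change was 0.24 (SE 0.37, adjusted p 0.858), and -0.094 (SE 0.30) without CRS replicate 1. Per kilobase of merged exons Mbp had the highest level of the 28 genes, at 135.6 CPM per kilobase in stress and 114.9 in control libraries. Mobp, for a small basic protein of the same compartment, had 323, 189 and 125 CPM in CRS replicates 1, 2 and 3, against 156, 189 and 151 CPM in Ctrl replicates 1, 2 and 3. Its ratio of 1.95 to the control mean in CRS replicate 1 was the highest of the 28, beside 1.14 and 0.754 in CRS replicates 2 and 3. Cldn11 encodes the tight junction protein that seals myelin layers, and had 166, 104 and 69.4 CPM in stress libraries, against 80.2, 102.7 and 91.1 CPM in controls. The log2 fold change was 0.31 (SE 0.38) with all libraries and -0.080 (SE 0.26) when CRS replicate 1 was left out. Mal, a proteolipid of glycolipid-rich membranes, had the same highest and lowest libraries, at 353, 255 and 169 CPM against 178, 250.5 and 217 CPM. Pllp, the gene of the proteolipid plasmolipin, did not share the high value of CRS replicate 1. It had 32.8, 31.3 and 23.2 CPM in stress libraries, against 25.5, 30.3 and 33.2 CPM in controls, so that Ctrl replicate 3 was the highest.

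All 7 genes of the sheath surface and of contacts were highest in CRS replicate 1, and 5 of them were lowest in CRS replicate 3. Mog, whose product stands on the outermost layer, had 54.9, 40.1 and 24.0 CPM in CRS replicates 1, 2 and 3, against 27.6, 37.2 and 33.2 CPM in Ctrl replicates 1, 2 and 3. Its log2 fold change was 0.28 (SE 0.38), and -0.041 (SE 0.32) without CRS replicate 1. Mag, the adhesion molecule that faces the axon, had 188, 124 and 87.6 CPM in stress libraries, against 94.6, 130 and 110 CPM in controls. Ermn, for a cytoskeletal protein of myelinating cells, had 107.8, 57.8 and 36.5 CPM in stress libraries, against 53.3, 62.0 and 51.0 CPM in controls. CRS replicate 1 held 1.74 times as much Ermn as the next library, the widest such gap among the 28, and CRS replicate 3 was at 0.659 of the control mean. Without CRS replicate 1 its log2 fold change turned from 0.28 (SE 0.47) to -0.24 (SE 0.27). Gjc3, which encodes a connexin of myelinating glia, had 60.3, 35.5 and 28.3 CPM in stress libraries, against 42.0, 46.2 and 30.4 CPM in controls. Its log2 fold change was 0.066 (SE 0.37), and -0.31 (SE 0.27) without CRS replicate 1, where the adjusted p was 0.503 by edgeR. Opalin, Tspan2 and Gpr37, for a sialoglycoprotein, a tetraspanin and a receptor that restrains differentiation, had smaller ratios to the control mean in CRS replicate 1, of 1.37, 1.5 and 1.42. Tspan2 and Gpr37 were also 2 of the 4 members for which CRS replicate 3 did not lie below all controls.

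**Figure D3:**
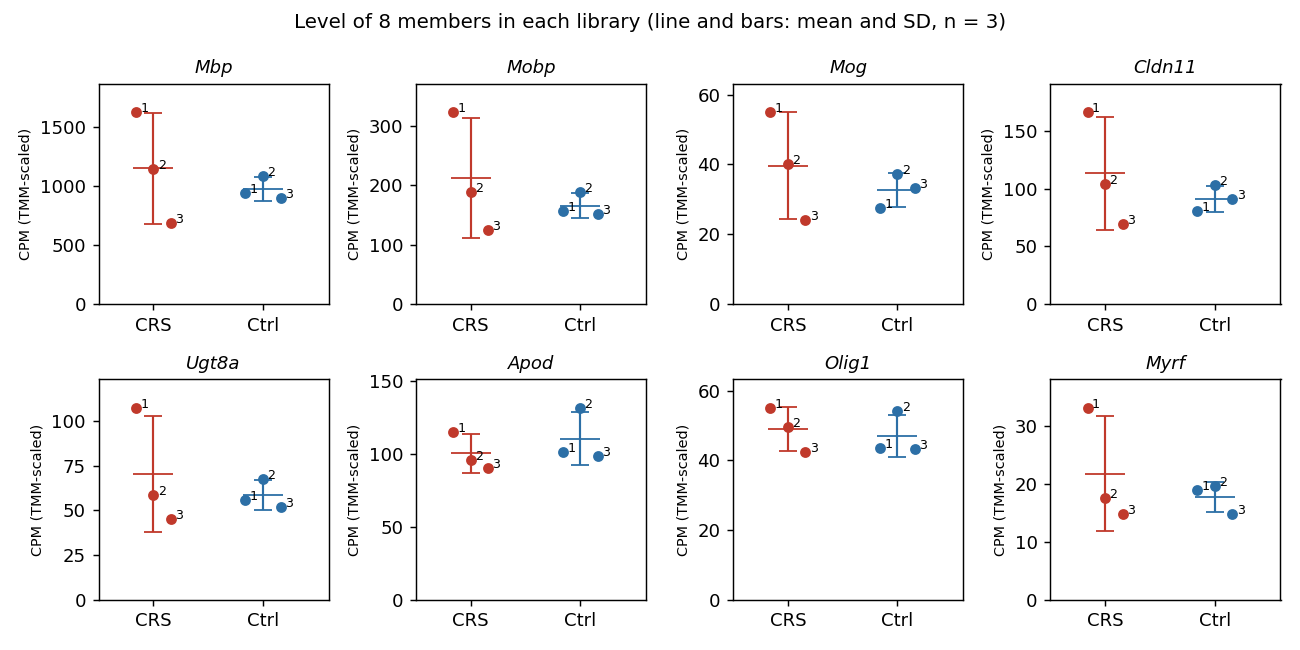
CPM of 8 members in each library. Points are libraries with their replicate number, and lines and bars are the mean and SD of 3 libraries. Mbp, Mobp, Mog, Cldn11, Ugt8a and Myrf spread more in CRS than in Ctrl. Apod spans 90.3 to 115.5 CPM in CRS and 99.1 to 131.7 CPM in Ctrl. Olig1 spans 42.3 to 55.0 CPM in CRS and 43.4 to 54.1 CPM in Ctrl.

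All 8 enzyme genes lay above the control mean in CRS replicate 1 and below it in CRS replicate 3. Ugt8a makes galactosylceramide, the main myelin glycolipid, and had 107, 58.8 and 45.1 CPM in CRS replicates 1, 2 and 3, against 55.7, 67.8 and 52.0 CPM in Ctrl replicates 1, 2 and 3. Fa2h, which hydroxylates the fatty acid of that lipid, was the one member with its highest value in CRS replicate 2, on 167 counts there and 165 in CRS replicate 1. It had 18.0, 19.4 and 11.1 CPM in stress libraries, against 9.92, 16.3 and 13.4 CPM in controls, and its log2 fold change was 0.28 (SE 0.33), and 0.19 (SE 0.40) without CRS replicate 1. Gal3st1, which adds the sulfate of sulfatide, had 9.58, 8.72 and 5.81 CPM in stress libraries, against 5.93, 6.66 and 7.65 CPM in controls. CRS replicates 1 and 2 lay above all controls for both Fa2h and Gal3st1. Enpp6, a choline phosphodiesterase gene that marks newly formed oligodendrocytes, had the largest log2 fold change of the members with all libraries, 0.43 (SE 0.55), and 0.069 (SE 0.52) without CRS replicate 1. It had 11.8, 9.19 and 3.84 CPM in stress libraries, against 4.72, 7.34 and 6.16 CPM in controls. The exact Poisson 95% intervals of Enpp6 in CRS replicates 1 and 3 were 9.65 to 14.2 and 2.70 to 5.29 CPM. They cover counting error only, and the ratio of these 2 libraries, 3.06 for Enpp6, was the largest of the 28 members.

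Among the metabolic enzymes, Cnp, the cyclic nucleotide phosphodiesterase gene of non-compact myelin, had 332, 247 and 175 CPM in stress libraries, against 202, 245 and 210 CPM in controls. Aspa cleaves N-acetylaspartate, a source of acetate for myelin lipids, and was 1 of 2 members with both remaining stress libraries below every control. It had 22.3, 14.07 and 14.01 CPM in CRS replicates 1, 2 and 3, against 14.5, 18.8 and 19.7 CPM in Ctrl replicates 1, 2 and 3. Without CRS replicate 1 its log2 fold change was -0.34 (SE 0.18), with an unadjusted p of 0.0422 and an adjusted p of 0.414 by edgeR, and with all libraries it was -0.074 (SE 0.26). Groups lay apart in that direction for 14.6% of all tested genes without CRS replicate 1, and for 2 of the 28 members. Car2, for carbonic anhydrase, had 205, 135.5 and 119 CPM in stress libraries, against 142, 140 and 126 CPM in controls. Qdpr, which regenerates a pterin cofactor, had 110, 79.8 and 65.5 CPM against 78.6, 80.7 and 71.7 CPM. For Car2 and Qdpr the controls lay within 1.05 times their mean at the upper end, and CRS replicate 1 stood at 1.51 and 1.43 times that mean.

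Apod, the gene of the lipid-binding lipocalin apolipoprotein D, was the member least like the rest. It had 115.5, 96.1 and 90.3 CPM in CRS replicates 1, 2 and 3, against 101, 132 and 99.1 CPM in Ctrl replicates 1, 2 and 3. Ctrl replicate 2 was the highest, and CRS replicates 2 and 3 lay below all controls. Its log2 fold change was -0.14 (SE 0.17), and -0.25 (SE 0.18) without CRS replicate 1, with an adjusted p of 0.436 by edgeR. The transferrin gene Trf, for an iron carrier that oligodendrocytes make, had 395, 249.3 and 182 CPM in stress libraries, against 190, 287 and 213 CPM in controls. The small heat shock protein gene Cryab had 56.3, 41.8 and 24.2 CPM against 35.4, 33.0 and 31.6 CPM, so that its controls lay closer together than the stress libraries. Plekhb1, for a pleckstrin homology protein, had 191.7, 120.9 and 93.7 CPM in stress libraries, against 126.7, 135 and 112 CPM in controls. With all libraries the log2 fold change was 0.12 (SE 0.31), and -0.22 (SE 0.17) without CRS replicate 1.

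All 4 transcription factor genes were highest in CRS replicate 1. Myrf, the factor that drives the myelin genes in maturing cells, had 33.0, 17.4 and 14.7 CPM in CRS replicates 1, 2 and 3, against 18.9, 19.6 and 14.8 CPM in Ctrl replicates 1, 2 and 3. Nkx6-2, a homeobox factor of oligodendrocytes, had 7.95, 5.001 and 3.42 CPM in stress libraries, against 3.39, 4.21 and 4.78 CPM in controls, and the smallest unadjusted p of the members with all libraries, 0.237 by edgeR. For this gene the log2 fold change was 0.40 (SE 0.39), and 0.013 (SE 0.27) without CRS replicate 1. Its lowest level rests on 28 counts, with an exact Poisson 95% interval of 2.25 to 4.89 CPM. CRS replicate 1 stood at 1.86 and 1.93 times the control mean for Myrf and Nkx6-2. Olig1 and Sox10 stood at 1.17 and 1.35 times. Both are also active in precursor cells, and the part of this in their ratios was not tested. Olig1 had 55.0, 49.7 and 42.3 CPM in stress libraries, against 43.5, 54.1 and 43.4 CPM in controls, so the groups covered nearly the same range. Sox10 had 28.9, 25 and 18.2 CPM against 19.6, 22.8 and 21.9 CPM, and its log2 fold change was 0.16 (SE 0.21), and 0.0004 (SE 0.19) without CRS replicate 1.

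By role, the median ratio to the control mean in CRS replicate 1 was 1.66 for the 5 membrane and sheath genes, 1.53 for the 7 surface and contact genes, 1.47 for the 8 enzymes, 1.61 for the 4 carriers and others, and 1.6 for the 4 transcription factors. In CRS replicate 3 these medians were 0.76, 0.734, 0.821, 0.771 and 0.839. 18 of the 28 genes reached at least 1.5 times the control mean in CRS replicate 1, and no member exceeded the control mean in CRS replicate 3. Being highest in CRS replicate 1 at 1.5 times the control mean or more was seen for 5.43% of all tested genes.

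Of a further list of 36 oligodendrocyte genes outside the members 35 were tested and 0 passed in either direction by edgeR. 26 were highest in CRS replicate 1 and 17 lowest in CRS replicate 3, with both in 15, while 4 were lowest in CRS replicate 1. Over all tested genes the first 2 placings were seen for 25.5% and 17.3%. Dock10, 1 of these 4, is also in the dentate granule neuron list. Their median log2 fold change was 0.19 with 29 positive, and -0.048 with 14 positive without CRS replicate 1. 2 of the 35 had an unadjusted p under 0.05 by edgeR, against 8.71% of all tested genes. Gamt, for a creatine synthesis enzyme, had 10.45, 8.61 and 6.75 CPM in stress libraries, all above the 5.56, 6.27 and 6.48 CPM of the controls, with a log2 fold change of 0.49 (SE 0.21) and an adjusted p of 0.534 by edgeR. Without CRS replicate 1 the value was 0.32 (SE 0.16). Tcf7l2, a factor of maturing oligodendrocytes that thalamic neurons also express, had 4.25, 3.61 and 3.22 CPM, all below the 4.35, 7.25 and 5.95 CPM of the controls, with -0.67 (SE 0.26) and an adjusted p of 0.504, and -0.79 (SE 0.32) without CRS replicate 1.

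Of 15 genes of oligodendrocyte precursors 2 were highest in CRS replicate 1, and 0 passed with or without that library. Their median log2 fold change was 0.052, and 0.097 without CRS replicate 1. The list's median level relative to the control mean, on the log2 scale, was -0.10, 0.037 and 0.082 in CRS replicates 1, 2 and 3, against -0.095, 0.070 and -0.033 in Ctrl replicates 1, 2 and 3. For the 28 members the same measure was 0.63, 0.15 and -0.32 in stress libraries, against -0.12, 0.17 and -0.066 in controls. Pdgfra, the growth factor receptor of precursor cells, had 85.5, 85.5 and 85.9 CPM in stress libraries, against 85.7, 100.9 and 89.8 CPM in controls. Cspg4, the NG2 proteoglycan gene, ran opposite to the members within stress, with 23.5, 35.4 and 40.0 CPM in CRS replicates 1, 2 and 3, against 23.3, 32.4 and 32.5 CPM in controls. Cacng4, of the same list, had the members' order within stress. It had 6.21, 4.07 and 2.80 CPM in stress libraries, against 3.51, 2.94 and 3.08 CPM in controls. No test of the difference between the precursor and mature lists was made.

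Lipid pathways outside the list gave no calls. Of 19 cholesterol synthesis genes 0 passed and 4 were positive, and the median log2 fold change was -0.082, or -0.11 without CRS replicate 1. Of 19 sphingolipid genes 18 were tested and 0 passed, with a median of 0.082, and 0.019 without CRS replicate 1. Sgms2, a sphingomyelin synthase gene, had the smallest p of that list and stood out in CRS replicate 1, with 19.4, 4.65 and 4.05 CPM in stress libraries, against 3.99, 2.94 and 3.08 CPM in controls. Its log2 fold change was 1.49 (SE 0.88), with 0.534 as the adjusted p by edgeR, and 0.39 (SE 0.18) without CRS replicate 1.

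Of 17 genes of axon and glia contacts 0 passed. The potassium channel gene Kcna2, whose product sits beside the paranode of myelinated axons and is made by neurons, had the smallest p. It had 315, 322.5 and 302 CPM in stress libraries, all below the 403, 384 and 388 CPM of the controls. By edgeR its log2 fold change was -0.32 with an adjusted p of 0.215, and the SE from limma-voom was 0.035. Without CRS replicate 1 the adjusted p was 0.0721 and the log2 fold change -0.33 (SE 0.045), and CRS replicate 1 lay between the other stress libraries. Epb4.1l3, a paranodal scaffold gene, had 203, 161 and 147 CPM in stress libraries, against 199, 192 and 193 CPM in controls. Its log2 fold change was -0.20 (SE 0.14), and -0.34 (SE 0.051) with an adjusted p of 0.0721 by edgeR without CRS replicate 1.

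**Figure D4:**
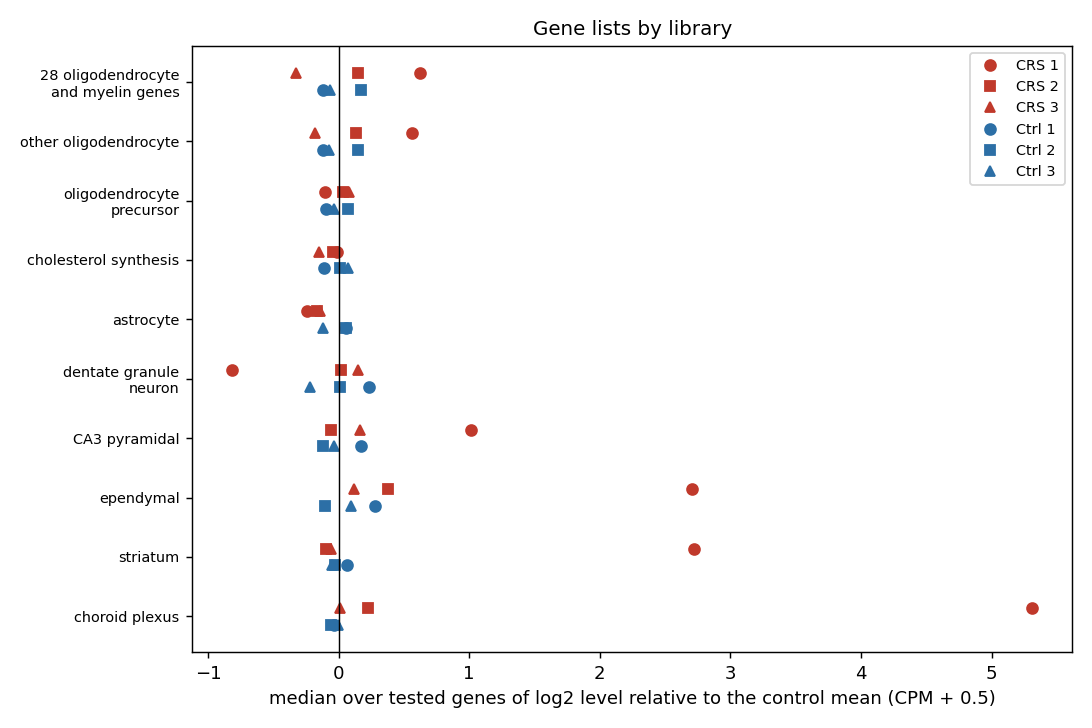
Median level of 10 gene lists in each library, as log2 of CPM + 0.5 relative to the mean of the controls, over the tested genes of each list (red CRS above blue Ctrl, shape by replicate). CRS replicate 1 lies at 5.31 for choroid plexus, 2.72 for striatum, 2.71 for ependymal and -0.81 for granule neuron genes, and at 0.63 for the 28 members, whose CRS replicate 3 lies at -0.32.

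The 2 extreme libraries differed from each other in other lists too. In CRS replicate 3, where 24 members were below all controls, the choroid plexus, ependymal and striatal sums were 29.8, 9.03 and 203 CPM, inside or next to the ranges of the controls. The granule neuron genes summed to 1406 CPM there, against 1374, 1280 and 1074 CPM in Ctrl replicates 1, 2 and 3. The microglia list had its highest median level there, 0.38, with 0.295 in Ctrl replicate 2 next to it. It stood at -0.18 and -0.11 in Ctrl replicates 1 and 3, and at 0.0083 in CRS replicate 1. The thalamus and habenula genes summed to 212, 259 and 214 CPM in CRS replicates 1, 2 and 3. All were below the 350, 371 and 376 CPM of Ctrl replicates 1, 2 and 3. For 7 of the 10 tested genes of this list all stress libraries lay below all controls. Tcf7l2, also in the further oligodendrocyte list, was 1 of these. The groups lay apart for 14.6% of all tested genes, a share that counts both directions. With all libraries 0 of the 10 passed by edgeR. Without CRS replicate 1 the number was 2, where 0.289% of all tested genes passed. The astrocyte list stood at -0.24, -0.16 and -0.14 in CRS replicates 1, 2 and 3, against 0.060, 0.055 and -0.12 in controls, with CRS replicate 1 the lowest. The part of these differences in the myelin values was not tested.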

How the data were processed

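RNA was measured in 6 libraries, 3 CRS and 3 Ctrl. The authors deposited unnormalized counts, as whole numbers for each gene symbol and library. The submitters' processing notes name HTSeq 0.6.1, TopHat2 2.0.9, Trimmomatic 0.33, FastQC 0.11.3 and edgeR 3.12.0 without their roles, and give mm10 and GRCm38 as builds. The libraries come from a stranded total RNA kit with ribosomal RNA removal, per the labels. How the counting treated strand is not given in the sources used here. Reads of Ermn, Tspan2, Cnp, Cryab and Nkx6-2, 5 members that overlap a counted gene on the opposite strand, may therefore be shared.

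Reads of no gene, 59.5% to 63.1% of those listed, and ambiguous reads, 0.211% to 0.253%, were left out. Depth, as the sum of all gene counts in a library, was 8575540 to 9626686 in CRS and 8305753 to 10107953 in Ctrl. The members had 28 to 14871 counts per library. Intervals cover counting error only.

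All genes were fitted in R 4.3.3 with edgeR 4.0.16 (filterByExpr, trimmed mean of M values, quasi-likelihood F-test, two-sided, group as the single term), with Benjamini-Hochberg adjustment over 14058 tested genes and a threshold of 0.05. All 28 members passed the filter. SE come from limma 3.58.1 (voom), a separate fit from the edgeR one that gave the log2 fold changes. CPM are scaled by trimmed mean of M values, with factors of 0.982 to 1.01. List levels use log2 of CPM + 0.5. The fit was tested on simulated counts, in 5 draws with 200 changed genes each. It called 52.8% of changes of 1.5 times, 84.8% of 2 times and 99.1% of 4 times. Smaller changes were not simulated. Exon lengths and positions are from GENCODE M21 on GRCm38.

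The members and all lists were chosen with earlier results of these data known. Values per library were given for Mbp, Mog and the members with the 6 smallest p-values in the fit of all libraries and in the fit without CRS replicate 1. They were also given for members with the highest level or widest spread in their role, and for up to 4 genes of each other list, by smallest p or as defining markers. Members given beyond these were chosen after their values were seen. Promoter windows and their letters were chosen after the values were seen. As alternatives, each library was left out in turn, the replicate number was added as a block, and scaling, filter, threshold (0.10) and test (edgeR's exact test, DESeq2 1.42.0 or limma-voom) were changed. A few genes of the other lists are not reported here.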

Additional observations from a re-analysis of the deposited data

How the results depend on the processing

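No member passed under any of the alternatives run. The members' median log2 fold change was 0.16 to 0.25 under other scalings, filters, tests and the replicate block, and ranged from -0.080 without CRS replicate 1 to 0.47 without CRS replicate 3 when 1 library was left out. The number of genes called over the whole table, 4 as fitted, was 107 by DESeq2, 131 by edgeR's exact test and 1 by limma-voom, and between 0 and 41 with 1 library left out. With the replicate number as a block it was 0, with 0 members called and a median of 0.17. Same-numbered libraries correlated in their deviations from the group means at 0.14, -0.0076 and 0.042. Other pairs of a stress and a control library lay between -0.15 and 0.12. With 3 libraries per group these values cannot decide if the numbers pair the libraries. 22 of the 28 log2 fold changes turned sign when 1 library was left out. For 20 of these the lowest value came without CRS replicate 1 and the highest without CRS replicate 3. The pairs were -0.094 and 0.51 for Mbp, -0.079 and 0.63 for Mobp, -0.022 and 0.51 for Mal, -0.13 and 0.12 for Pllp and -0.08 and 0.57 for Cldn11. They were -0.041 and 0.54 for Mog, -0.081 and 0.49 for Mag, -0.23 and 0.27 for Opalin, -0.24 and 0.58 for Ermn and -0.31 and 0.28 for Gjc3. They were -0.051 and 0.30 for Gpr37, -0.054 and 0.41 for Cnp, -0.18 and 0.51 for Ugt8a, -0.34 and 0.048 for Aspa and -0.087 and 0.31 for Qdpr. They were -0.10 and 0.33 for Car2, -0.10 and 0.49 for Trf, -0.023 and 0.56 for Cryab, -0.22 and 0.33 for Plekhb1 and -0.14 and 0.52 for Myrf. Apod lay between -0.25 and 0.012 and Olig1 between -0.036 and 0.18. Opalin was at -0.012 by limma-voom. The causes were not tested. Depth limits mainly Nkx6-2, Enpp6 and Gal3st1, with 28 to 108 counts per library.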
